A study of Xenopus laevis with 6 samples.

Results

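Clustered Etv6 peaks are short stretches of the frog genome bound by the transcription factor Etv6 that lie close to another bound stretch. They were chosen by position and length alone: a consensus peak on a chromosome, at most 1000 bp long, with less than 10 kb to the nearest other peak of any length. Of the 9128 consensus peaks, 6118 lay on the 18 chromosomes and 5485 of these were at most 1000 bp long. The rule found 1252 clustered peaks, which were 22.8% of the 5485 (exact 95% interval 21.7 to 24.0%) and 13.7% of the whole list. The gap and the length therefore describe how the members were chosen and support nothing by themselves.

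The list comes from 3 Etv6 ChIP samples, each set against its own input of sonicated chromatin without immunoprecipitation (3 inputs). All 6 samples were wild-type somites of J-strain Xenopus laevis at stage 22, and their label gives 2 mM EGS and 10 min for the cross-linking. The antibody was custom-made against Xenopus Etv6. By the study's methods the somites were not dissected free of the neighbouring axial tissues and endoderm, so a peak cannot be assigned to somitic cells alone. One consensus list was made for the 3 ChIP samples, with a score of 0 in every row. The list holds no value for a single sample and no read depth, so replicate error is not known for any peak. Intervals below cover counting error only, and neighbouring peaks are not independent.

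Etv6, also called Tel, belongs to the ETS family, whose members bind DNA through a winged-helix ETS domain. It also carries a pointed domain through which molecules of the protein can join into polymers, and it is best known as a transcriptional repressor that is needed for blood and vessel development. Xenopus laevis is an allotetraploid frog. It carries a long (L) and a short (S) copy of each chromosome, inherited from different ancestral species, so that many genes are present as an L and an S homeolog. Whether neighbouring peaks are separate binding sites cannot be told from a list of positions.

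The clustered peaks formed 593 runs. A run is a series of neighbouring peaks of any length in which each gap is under 10 kb, with at least 1 clustered peak. Together the runs held 1520 peaks, of which 268 were over 1000 bp and so were neighbours of members without being members. Most runs were pairs: 425 runs (71.7%) had 2 peaks, 95 had 3 and 73 had 4 or more. The pairs held 756 of the 1252 clustered peaks, whereas the runs of 4 or more held 268. Runs were short. Their median span was 3.85 kb, from 0.797 to 37.2 kb, and the sum of all spans was 3.24 Mb. By distance, the nearest peak was under 100 bp away for 159 clustered peaks, from 100 bp to 1 kb for 499, from 1 to 5 kb for 371 and from 5 to 10 kb for 223. Thus 658 of the 1252 members (52.6%) had another peak within 1 kb. The other 4233 short peaks had their nearest neighbour at a median of 129 kb.

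**Figure D1:**
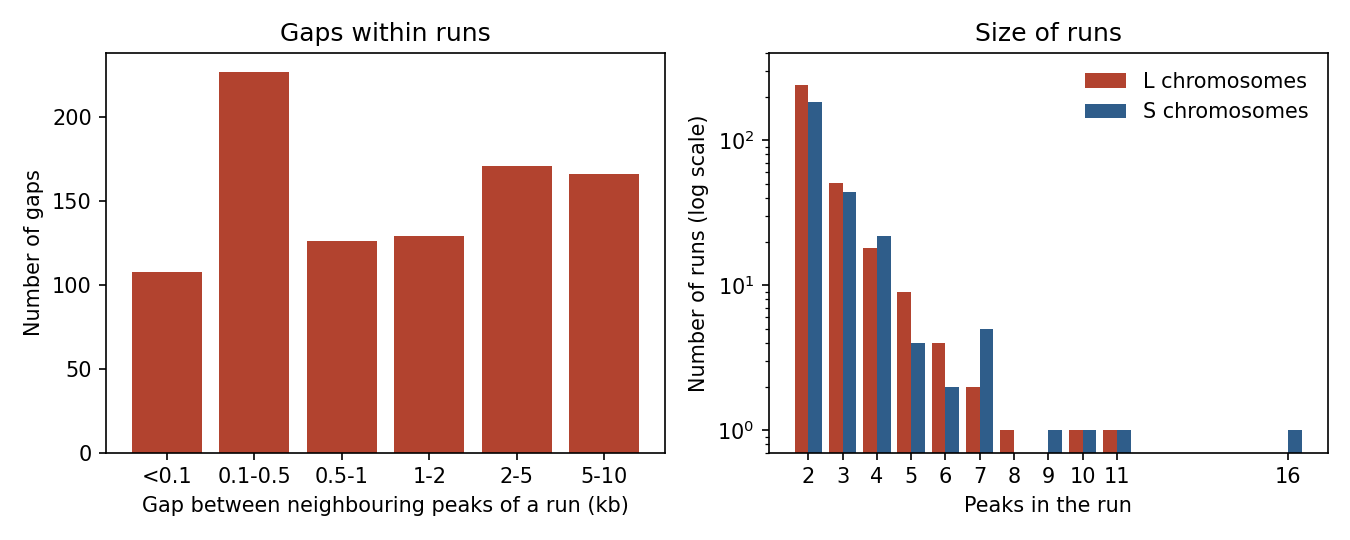
The left plot gives the number of gaps between neighbouring peaks of the 593 runs by gap in kb, and the right plot the number of runs on a log scale by peaks per run, L chromosomes beside S chromosomes. The bins differ in width. Gaps of 100 to 500 bp were the most frequent bin with 227 of 927, and the narrower bin under 100 bp held 108. Of the runs, 242 on L and 183 on S were pairs.

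Between neighbouring peaks of a run the median gap was 1017 bp, with quartiles at 266 and 3559 bp over 927 gaps. The smallest gap was 1 bp, between peaks on chromosome 5S near position 116062062. Of the 927 gaps, 108 were under 100 bp, a distance below the length of the shortest clustered peak. A pair on chromosome 1L with a gap of 9992 bp, from 13112553 to 13113062 and from 13123056 to 13123647, was just inside the limit. A pair on 8S with 10001 bp, from 97933987 to 97934447 and from 97944450 to 97944932, was just outside. Near the limit, 37 short peaks had a gap of 9 to 10 kb against 43 with 10 to 11 kb. For length, a peak of 1000 bp on 6S was just inside and a peak of 1001 bp on 2S just outside. The shortest member, of 229 bp, lay on chromosome 5L from 98317206 to 98317433, within a run of 8 peaks.

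The peaks carry rising numbers in the order of the genome, and what the numbers count is not stated. Neighbouring peaks on chromosomes less than 10 kb apart had consecutive numbers in 864 of 946 cases (91.3%), against 2065 of 5154 (40.1%) for neighbours farther apart. Closer neighbours leave less room for a number in between, and the gap chose the members, so these shares are a description only. In 520 of the 593 runs no number was missing between the first peak and the last, and 97 numbers were missing from the remaining runs in all.

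The 10 runs with the most peaks held 96 peaks, 61 of them clustered and 35 over 1000 bp. Of 7 runs tied at 7 peaks, the 3 with the shortest spans were taken. All 14 runs of 7 or more peaks held 124 peaks, 78 of them clustered and 46 over 1000 bp. The largest run lay on chromosome 2S of the v9.1 genome from 32291484 to 32321080. It had 16 peaks in 29.6 kb, and peaks covered 64.8% of that span. Only 6 of the 16 were clustered peaks and 10 were over 1000 bp, the longest measuring 2886 bp. The gaps within this run had a median of 460 bp and none was above 2795 bp. A run on 9_10L from 23983101 to 24006655 and a run on 6S from 45809656 to 45843861 followed with 11 peaks each, of which 6 and 7 were clustered. Another run of 7 peaks began 30.1 kb after the run on 6S, so that this region held 18 peaks in both. By contrast, the run of 8 peaks on 5L from 98310227 to 98322791 was made of short peaks: 7 of 8 were clustered and peaks covered 39.2% of its 12.6 kb.

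**Figure D2:**
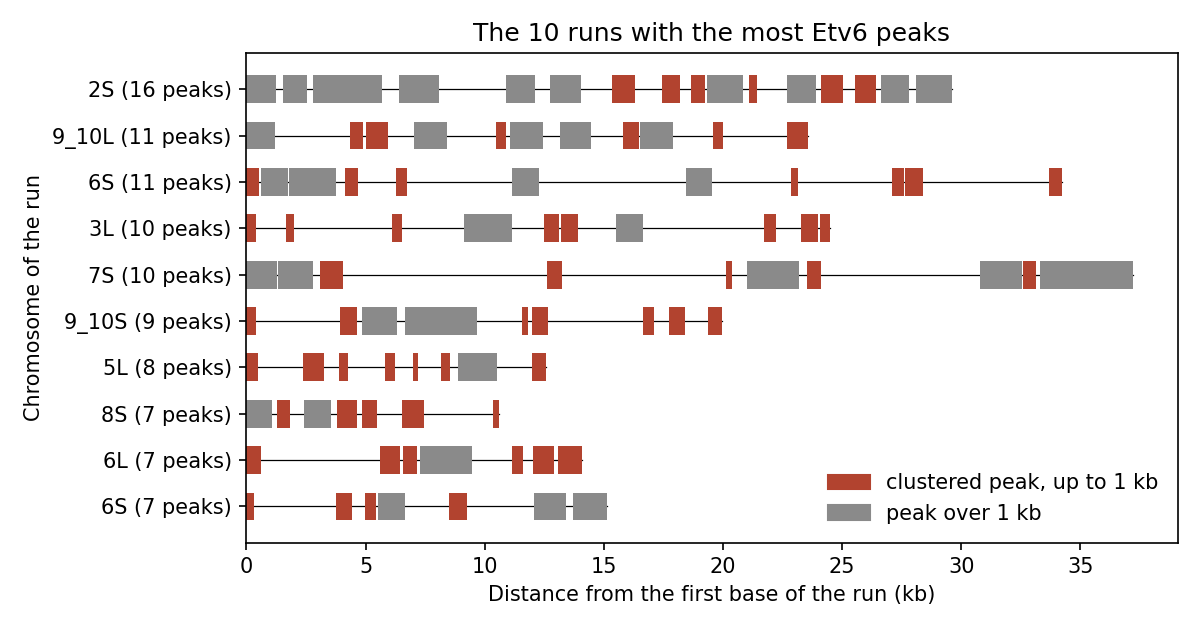
Each line is 1 of the 10 runs with the most peaks, labelled by chromosome, with distance in kb from the first base of the run on the horizontal axis. Red boxes are clustered peaks up to 1 kb and grey boxes peaks over 1 kb. The run on 2S has 16 peaks, 10 of them grey, whereas the run on 5L has 1 grey box among 8.

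Peaks over 1000 bp took a larger share of the larger runs. They were 94 of the 850 peaks in runs of 2 (11.1%), 57 of 285 in runs of 3 and 117 of 385 in runs of 4 or more (30.4%). A run of 2 can hold at most 1 such peak by the definition of a run, and the definition allows a larger share in larger runs. Among all 6118 chromosome peaks, 633 were over 1000 bp. For 214 clustered peaks (17.1%) the nearest neighbour itself was over 1000 bp. Among all chromosome peaks over 1000 bp, 304 of 633 (48.0%, exact 95% interval 44.1 to 52.0%) had another peak within 10 kb, against 22.8% of the short ones. Since the gap chose the members, these shares are given as a description without a test. Clustered peaks had a median length of 530 bp (quartiles 417 and 692 bp) and the other short peaks a median of 522 bp (quartiles 416 and 667 bp). Over the 18 chromosomes the difference in medians, clustered minus other, averaged 9.92 ± 31.0 bp (SD). It was above 0 on 12 chromosomes and below 0 on 5. Length is part of the rule, so no test of it is given. By gap, median lengths were 543 bp under 100 bp, 542 bp from 100 bp to 1 kb, 529 bp from 1 to 5 kb and 498 bp from 5 to 10 kb.

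L chromosomes held 682 clustered peaks and S chromosomes 570. The L share was therefore 54.5% (exact 95% interval 51.7 to 57.3%), against 53.8% among the other short peaks (52.3 to 55.3%). The clustered share of short peaks was 23.1 ± 5.00% on L chromosomes and 22.6 ± 4.01% on S chromosomes (mean and SD over 9 chromosomes each). Within the 9 homeologous pairs the difference, L minus S, averaged 0.54 percentage points with an SD of 5.90, and L was higher in 5 pairs and S in 4. An exact two-sided sign-flip permutation test over the pairs gave p = 0.797, the same value after adjustment, and 9 pairs cannot give a p below 0.00391.

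The pairs differed in both directions. On chromosome 3 the clustered share was 30.7% on L (121 of 394 short peaks) against 19.3% on S (47 of 243), the widest difference in favour of L. Chromosome 2 had the widest in favour of S, with 18.5% on L (67 of 363) against 27.7% on S (99 of 358). Chromosome 8 had 27.4% on L and 21.0% on S. In the remaining 6 pairs the copies were within 4 percentage points of each other. With the chromosome 3 pair left out, a choice made after seeing the data, the mean difference turned to -0.81 percentage points (exact sign-flip permutation test, p = 0.633). It was -0.34 and -0.32 percentage points with gap limits of 1 and 5 kb, also without passing the test (p = 0.855 for each, exact sign-flip permutation test).

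**Figure D3:**
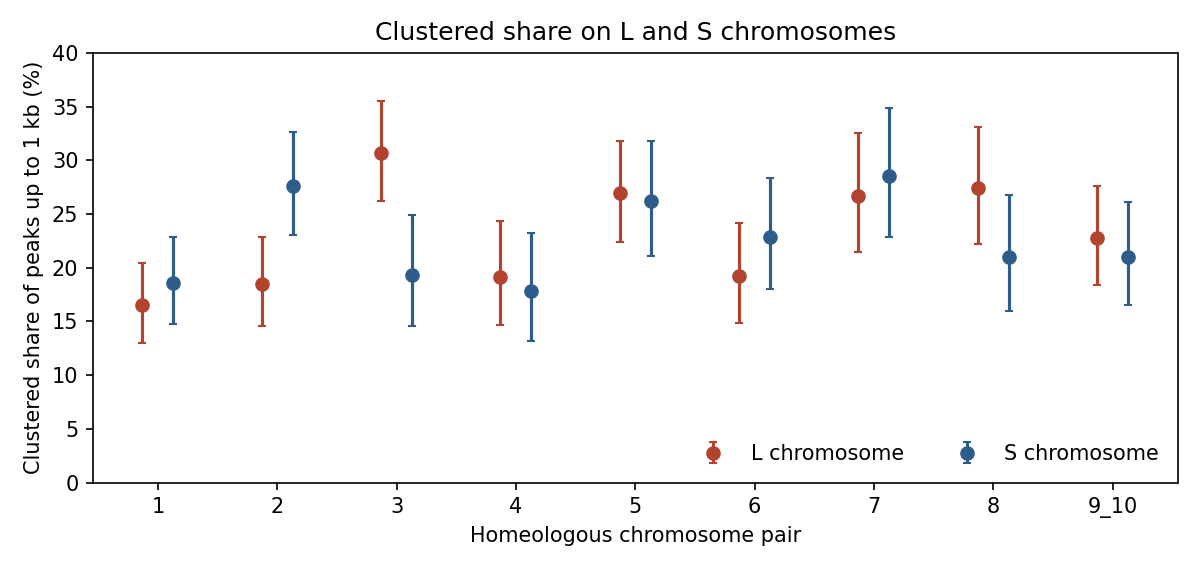
Points give the clustered share in percent of the chromosome peaks up to 1 kb on each of the 18 chromosomes, with L left of S in each of the 9 homeologous pairs, and bars are exact 95% intervals. L lies above S for chromosomes 3, 4, 5, 8 and 9_10 and below it for 1, 2, 6 and 7, from 30.7% on 3L to 16.5% on 1L.

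Runs were likewise found on both sets of chromosomes, 329 on L and 264 on S (L share 55.5%, exact 95% interval 51.4 to 59.5%). Runs of 3 or more peaks made up 26.4% of the runs on L (87) and 30.7% of those on S (81). The gaps within runs had a median of 1052 bp on L and 990 bp on S. Of the 14 runs of 7 or more peaks, 5 lay on L and 9 on S. The density of all chromosome peaks, counted from the first peak to the last, was 1.99 to 3.19 per Mb on L chromosomes and 2.19 to 3.18 per Mb on S chromosomes. Within pairs, the density was 3.02 on 3L against 2.25 on 3S, and 2.23 on 2L against 2.57 on 2S. On 8L and 8S it was 2.65 and 2.68. Chromosome lengths were not used here.

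Along the chromosomes, clustered peaks took the smallest share toward the end. Each chromosome was divided into 10 equal segments from its first peak to its last in the orientation of v9.1. Of the short peaks, 975 of 3799 (25.7%) were clustered in segments 1 to 7 and 277 of 1686 (16.4%) in segments 8 to 10, and the share was lower in segments 8 to 10 on 17 of 18 chromosomes. The lowest value was 14.0% in segment 8 and the highest 28.5% in segment 5. This division was made after the values were seen, so no test is given.

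At a finer scale, the clustered peaks fell in 492 of the 1975 windows of 1 Mb that held a short peak. In 40 windows there were 5 or more, and these held 288 members (23.0%). The window from 4 to 5 Mb on 3L had the most, with 21 clustered peaks in 6 runs and 3 other short peaks. The window from 31 to 32 Mb on 2S had 14 in 5 runs, and that from 45 to 46 Mb on 6S had 11 in 2 runs. The first Mb of 8L also had 11, in 6 runs. Most runs stood alone: 84 of 593 runs (14.2%) had another run within 100 kb, and the median distance to the nearest run was 1.06 Mb.

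To put names to the peaks, the list was joined to the study's supplementary list of 545 Etv6 peaks at transcription start sites (TSSs). Those peaks lie at genes whose expression differed between wild-type and Etv6-deficient somites, and only their names and positions were used. Among the chromosome peaks up to 1000 bp, 8.9% were at such a listed TSS. Clustered peaks were there less often than the rest, 51 of 1252 (4.07%, exact 95% interval 3.05 to 5.32%) against 437 of 4233 other short peaks (10.3%, 9.42 to 11.3%). On 17 of 18 chromosomes the share was lower among the clustered peaks. The difference, clustered minus other, averaged -6.40 ± 3.63 percentage points over chromosomes (SD, n = 18), and passed an exact two-sided sign-flip permutation test (p = 1.53e-05, adjusted over the 3 planned tests p = 4.58e-05). Chromosomes were the units, so the test does not cover variation between embryos. The exception was 4S, where 9.30% of the clustered peaks (4) and 7.58% of the other short peaks (15) were listed. The rule also places a short neighbour of a clustered listed peak among the clustered peaks, where it counts as unlisted unless listed itself. Part of the difference by peaks is therefore set by the counting, and the test by peaks cannot separate that part. With each run counted once in place of its peaks, 46 of 593 runs (7.76%) held a listed peak. The difference was then -2.97 percentage points (exact sign-flip permutation test, p = 0.027, not adjusted). A run holds more than a single peak, and its listed peak could exceed 1000 bp. Runs and single short peaks are therefore unlike units. A peak counted here had to lie at an annotated TSS of a gene in the expression list, and the distance of the remaining peaks from any TSS was not tested.

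Counted by peaks, the share at a listed TSS was lower in the larger runs, a description without a test. It was 5.95% of the clustered peaks in runs of 2 (45 of 756) and 1.75% in runs of 3 (4 of 228). In runs of 4 or more it was 0.746% (2 of 268). Where a TSS labels 1 peak, each further peak of the run lowers this share. Counted by run, 39 of 425 runs of 2 held a listed peak (9.18%). Runs of 3 gave 4 of 95 (4.21%, exact 95% interval 1.16 to 10.4%). Runs of 4 or more gave 3 of 73 (4.11%, 0.856 to 11.5%), close to the share in runs of 3. In 1 of these runs, at LOC733563-like.S, the listed peak was over 1000 bp and so not a member. None of the 14 runs of 7 or more peaks held a listed TSS, against 46 of all 593 runs (7.76%). With so few runs, nothing is read from this count of 0. For the 10 shown in the plot of the largest runs the nearest listed TSS lay 0.454 to 11.9 Mb away. These distances were not compared with those of other runs. The 16-peak run on 2S was 0.669 Mb from the nearest, at Xelaev18014540m.g, and the 8-peak run on 5L was 0.454 Mb from that of tnk2.L, a non-receptor tyrosine kinase gene. The share also differed by gap. It was 5.66% for clustered peaks with a gap under 100 bp (9 of 159), 2.00% from 100 bp to 1 kb (10 of 499), 5.12% from 1 to 5 kb (19 of 371) and 5.83% from 5 to 10 kb (13 of 223). For other short peaks it was 7.47% at 10 to 20 kb, 11.8% at 20 to 100 kb and 9.80% at 100 kb or more. The class under 100 bp counts both peaks of hes1.S, awat1.S and elmo1.L, and the class from 100 bp to 1 kb both of atf4.S.

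**Figure D4:**
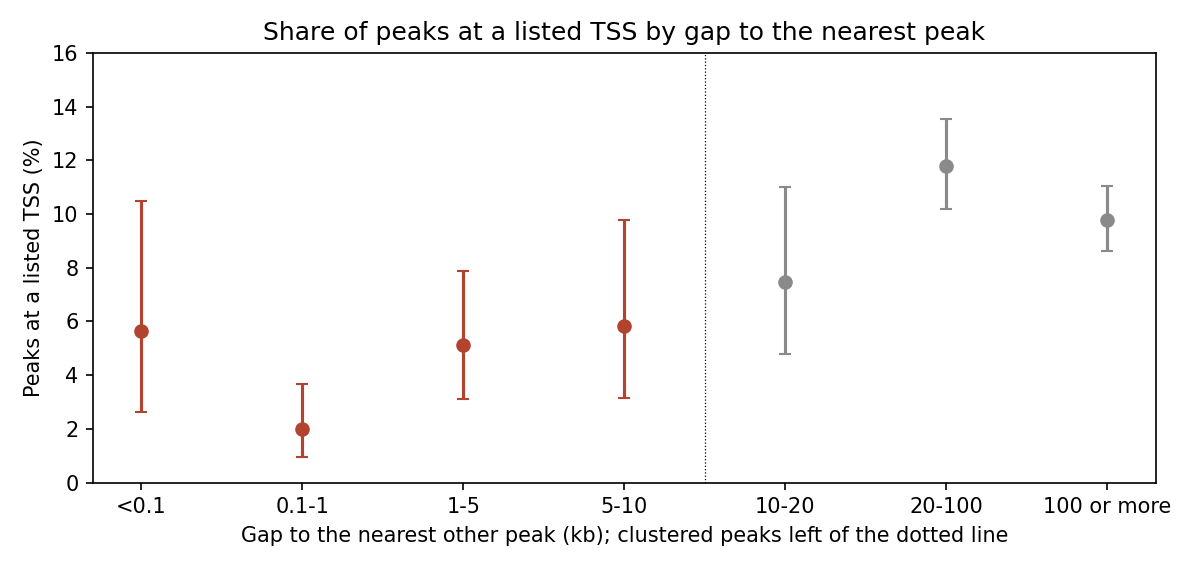
Points give the percentage of chromosome peaks up to 1 kb at a listed TSS by gap to the nearest other peak in kb, with exact 95% intervals. The 4 classes of clustered peaks, left of the dotted line, lie between 2.00 and 5.83% and the 3 classes of other short peaks between 7.47 and 11.8%.

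The 51 clustered peaks at listed TSSs belonged to 45 genes and had a median length of 531 bp. Of the 45, 25 matched a symbol of the RefSeq gene table of the v10.1 genome, and for 24 the chromosome was the same there. The exception was elmo1.L, which has 2 peaks on 9_10L here and lies on 6L in v10.1, so that its name is uncertain. Only locus names were given for 18 of the 45. The study's expression table pairs 4 of these with a human symbol: HABP4, SAP30L (a subunit of the Sin3 histone deacetylase complex), RBM43 and STAT3, the transcription factor downstream of cytokine receptors. The STAT3 peak lay on 9_10L from 422280 to 423184, with a length of 906 bp and another peak 909 bp away.

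Genes of transcription and chromatin had 10 clustered peaks among their 41 chromosome peaks in the listing (24.4%), against 51 of 515 (9.90%) for all listed chromosome peaks. Of all chromosome peaks, listed or not, 1252 of 6118 (20.5%) were clustered, near the share of the transcription and chromatin genes. The 36 genes of this group were picked from the names in the listing, and the 10 peaks belonged to atf4.S, dnmt1.L, hes1.S, klf4.L, klf11.L, mnt.S, pou2f1.S.g and vezf1.S. The loci paired with STAT3 and SAP30L were not in the group, so their clustered peaks are not among the 10. Signalling genes had 2 of 21, at ptch1.S, the Hedgehog receptor gene, and fgfr2.S, a fibroblast growth factor receptor gene. Genes of the cell cycle and DNA replication had 0 of 20, and genes of carbohydrate metabolism 0 of 9. Approximate upper limits, taken as 3 over the number of peaks and not as exact intervals, were 15.0% and 33.3%. Of the 34 transcription and chromatin genes with a chromosome peak, 8 had a clustered one, since atf4.S and hes1.S gave 2 peaks each. The 51 of 515 include these 10 peaks. The lists were chosen with earlier results of these data known, so the shares describe the lists only. These counts are small and no test of the lists was made.

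Some genes were listed with both peaks of a pair, and whether both lie at the same TSS was not tested. At atf4.S, which encodes a bZIP factor of the integrated stress response, peaks of 517 and 507 bp lay 218 bp apart on chromosome 4S, from 93596545 to 93597060 and from 93597280 to 93597785. At hes1.S, which encodes a bHLH repressor downstream of Notch, peaks of 613 and 390 bp lay 65 bp apart on 5S, from 87919043 to 87919654 and from 87919721 to 87920109. At awat1.S, an acyl-CoA wax alcohol acyltransferase gene, peaks of 414 and 375 bp were 93 bp apart on 5S. The peaks named for elmo1.L, of 398 and 307 bp, were 92 bp apart. All of these pairs spanned 797 to 1242 bp in all. The peaks of 2 further pairs, at Xelaev18038100m.g and Xelaev18040923m.g on 8L, were farther apart, with gaps of 1841 and 3892 bp. A pair on 8L was the only run with peaks of 2 different listed genes, Xelaev18038114m.g and Xelaev18038115m.g, 8.37 kb apart.

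At the other transcription genes 1 peak of the run was at the listed TSS. The klf4.L peak, at a zinc finger factor of the Klf family, lay on 1L from 118370098 to 118370771 with a length of 675 bp, and a peak of 514 bp was 2.85 kb away. The peak of klf11.L, another Klf gene, measured 826 bp and its neighbour, 1.35 kb away, 845 bp. At mnt.S, which encodes a repressor that pairs with Max, a peak of 373 bp had a neighbour at 498 bp in a run of 3. At pou2f1.S.g, the Oct1 gene, a peak of 599 bp had a neighbour at 4.80 kb. The dnmt1.L peak, at the gene of the maintenance DNA methyltransferase, measured 758 bp and belonged to a run of 4 that spanned 14.5 kb. The distances thus ran from 55 bp at vezf1.S to 9.49 kb at dnmt1.L. Other regulatory genes lay outside the limit: the peaks of foxo3.S, foxo3.L and klf15.L had their nearest neighbour at 10.8, 14.6 and 50.7 kb.

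Of the genes in this listing, 31 had a chromosome peak at the L copy and another at the S copy. In 25 neither copy was clustered, and the gaps of these copies ran from 10.8 to 1297 kb. In the other 6 a single copy was, so that the clustered copies were 3 of 31 on L and 3 of 31 on S. With so few, nothing is read from the count of 0 genes with both. The clustered copy was L for dnmt1, slc20a1 and paqr4-like and S for abhd17b, osgin2 and vezf1. At osgin2, the S copy had peaks of 667 and 427 bp with 153 bp between them, a stretch of 1247 bp in all, while the L copy had 1 peak of 1164 bp and no other within 315 kb. At vezf1, a zinc finger gene of the vascular endothelium, the S copy had a peak of 579 bp and another of 1124 bp only 55 bp away, and the L copy had 1 peak of 1132 bp. At paqr4-like the L copy had peaks of 900 and 488 bp 425 bp apart, against 1 peak of 632 bp at the S copy. For abhd17b.S, dnmt1.L and slc20a1.L, the neighbour was 9.15, 9.49 and 7.86 kb away. At vezf1 and osgin2 the copy that was not clustered also exceeded 1000 bp, so it could not be a member by its length, and the same holds for dnmt1.S with 1093 bp. Joined into 1 stretch, the vezf1.S pair would span 1758 bp and exceed the length limit as well.

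**Figure D5:**
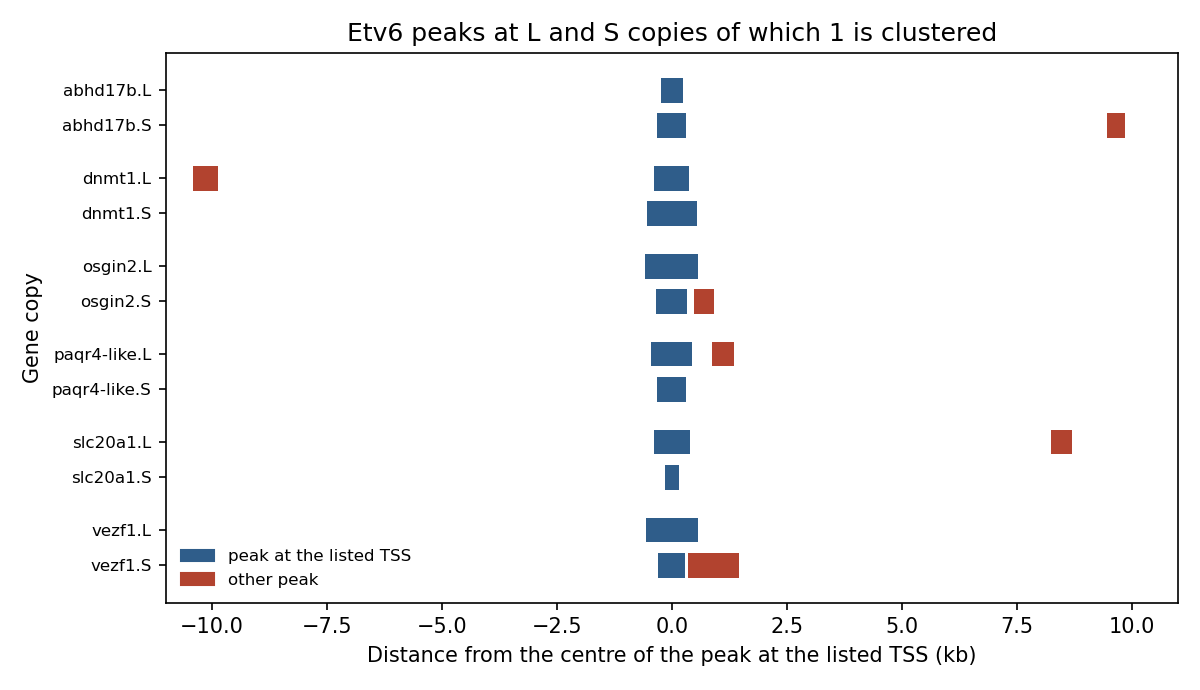
Boxes are the consensus peaks within 10 kb of the listed TSS peak of 6 genes, drawn to scale by distance in kb from the centre of that peak, with L above S for each gene. Blue boxes are peaks at the listed TSS and red boxes other peaks. Only 1 copy of each gene has a red box, next to the blue one at osgin2.S, paqr4-like.L and vezf1.S and 7.86 to 9.49 kb from it at the other 3.

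The remaining named genes with a clustered peak had a single listed peak each. Examples were parva.S, a focal adhesion gene, with peaks of 952 and 340 bp 710 bp apart, and micall1.S, with peaks of 858 and 627 bp 436 bp apart. At fkbp11.L, a prolyl isomerase gene of the endoplasmic reticulum, the gap was 1.06 kb, at rp9.L 1.27 kb and at luzp1.L 1.70 kb. The ptch1.S pair had peaks of 442 and 427 bp 3.52 kb apart. The fgfr2.S peak, of 296 bp, had a neighbour of 570 bp at 4.59 kb. At Xelaev18005411m.g on 1L, from 42348310 to 42349084, a peak of 776 bp had a neighbour of 418 bp only 115 bp away.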

How the data were processed

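The Etv6 ChIP-seq peak list rests on 3 ChIP samples and 3 inputs of wild-type somites. By the study's methods, Trimmomatic 0.32 was used for trimming, BWA 0.7.12 for mapping to X. laevis v9.1, MACS2 (default thresholds, input as control) for peaks of single replicates and DiffBind (minOverlap = 3) for the consensus. The list deposited by the authors gives the start, end and number of each peak and a score of 0 throughout, which was not used. It has 0 columns of per-sample values and holds no read depth. The study's reporting summary gives the reads of each library, which were not used here. Among the ChIP samples, replicate 3 had the fewest. The label gives 10 min of fixation, and the methods give another time.

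Deposited starts lie 2 bp before those of the supplementary list, so 2 bp were added to printed starts. Lengths are deposited end minus start. Gaps were measured from end to start. TSS names were joined by an overlap of at least 1 bp, and expression values were not used. Chromosomes or homeologous pairs were the units of the exact sign-flip permutation tests. Adjustment (Benjamini-Hochberg) was over the 3 planned tests, and that of length is not given because the rule used length. Intervals are Clopper-Pearson (95%). The scripts were tested on simulated data. The members, gene lists and tests were chosen with earlier results of these data known. Named were the 10 largest runs (ties by shorter span), genes with both copies or both peaks clustered, runs with 2 or more listed genes, the genes of 4 lists, the klf4, klf15, foxo3 and vezf1 copies and peaks at the limits. Other named genes and windows were chosen after their values were seen. A v9.1 genome sequence was not used here, so the planned motif search in promoters was not run. Python 3.11.15, NumPy 2.4.6, pandas 2.3.3, SciPy 1.17.1, statsmodels 0.14.6 and Matplotlib 3.10.9 were used.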

Additional observations from a re-analysis of the deposited data

How the results depend on the processing

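No paired analysis was possible because nothing in the deposited table belongs to 1 replicate, and fits without a replicate were not run for that reason. Of 39 alternatives, 34 kept the direction and the side of the threshold, or stayed within the interval, 1 SD or 1.5 times the count. With a gap limit of 1 kb there were 658 clustered peaks in 365 runs, and counts ran up to 1861 peaks in 867 runs with unplaced scaffolds included. The lower share of listed TSSs kept its direction and passed 0.05 under all 7 alternatives, from -6.84 percentage points with no length limit to -2.97 with runs in place of peaks (exact sign-flip permutation test, p = 0.027). Of these alternatives, only that with runs counts each run once. The others count peaks with their unlisted neighbours, so they do not bear on the part of the difference set by the counting. The difference in clustered share between L and S, which passed no threshold, turned to -0.34 percentage points at 1 kb, -0.32 at 5 kb and -0.81 without the chromosome 3 pair, an alternative added after seeing the data. The difference in median length, a description, was 20.8 bp at 1 kb, 17.8 bp at 5 kb and 0.083 bp for clustered peaks with gaps of 1 kb or more, also added after seeing the data. The cause of these changes was not tested.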
